A study of Rattus norvegicus with 64 samples.

Results

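A set of 10 genes that build elastic fibres or crosslink and fold collagen was followed in the reconstructed bladder wall of rats: Eln, Fbn1, Fbln1, Fbln5, Lox, Loxl1, Loxl2, Plod2, P4ha1 and Serpinh1. The set was a list of symbols, and a probe belonged to a gene when its RefSeq accession mapped to that symbol in the rat reference table. Of the 10 listed genes 9 had a named probe, out of 15715 genes named on the array, and Lox was not analysed here because no probe matched its accession in the table. Male Wistar rats underwent hemicystectomy, and the defect was closed with a graft of about 1 cm2. The graft was decellularized bladder wall (bladder acellular matrix, BAM) alone, or BAM that carried seeded adipose tissue-derived mesenchymal stromal cells (ASCs, named ADSCs in the labels) of the third passage. Seeded grafts of every day were given ASCs at 10 M (mega) cells per cm2, and BAM alone was given none. The cell donors were 10 weeks old, and the age of the operated rats was not given in the sources used here. Donors and recipients were syngeneic, and the arrays do not separate the RNA of seeded cells from that of host cells. The wall was collected at 7, 30, 90 and 180 days, separated from native bladder, and RNA of 8 rats per graft and day was hybridized to 1-color Agilent rat arrays, 64 arrays in all. No unoperated bladder was among the samples, so every value compares one reconstructed wall with another.

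Elastic fibres form when tropoelastin, the product of Eln, is laid on microfibrils of fibrillin-1 (Fbn1) with the help of fibulins such as Fbln5 and is then crosslinked. The crosslinks of elastin and collagen are started by lysyl oxidases, copper-dependent enzymes encoded by Lox and the Loxl genes. Collagen itself is prepared inside the cell: P4ha1 is the catalytic subunit of a prolyl 4-hydroxylase that stabilizes the triple helix, Plod2 hydroxylates lysines of the telopeptides that later carry the crosslinks, and Serpinh1 (HSP47) is a chaperone of procollagen. In the bladder, collagen and elastic fibres carry the stretch of filling.

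Each level is a log2 processed signal from which the 75th percentile of its own array was subtracted, so that 0 is the level at that percentile and a difference of 1 is a fold change of 2. Differences were tested with limma over all 64 arrays and 30367 probes, and a gene was called when the Benjamini-Hochberg adjusted p was below 0.01 and the fold change above 1.5. Each gene was read from its brightest probe. No member was saturated on any array, and all were well above background on the 8 arrays of every group, except Fbln5 on 7 arrays of BAM at 90 days and P4ha1 on 6 arrays of BAM at 180 days.

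Promoter sequence was examined for 5 of the 10 genes, from the RefSeq promoters of GRCr8. Most of the other genes had no entry among those promoters. In each, 250 bases upstream of the start were searched on both strands for the core of a hypoxia response element (ACGTG), a pair of heat shock element units (GAANNTTC) and a GC box (GGGCGG). The Plod2 window, chr8:101964068-101964317 on the plus strand, is shown because it held all 3 motifs, which are printed in capitals.
Plod2: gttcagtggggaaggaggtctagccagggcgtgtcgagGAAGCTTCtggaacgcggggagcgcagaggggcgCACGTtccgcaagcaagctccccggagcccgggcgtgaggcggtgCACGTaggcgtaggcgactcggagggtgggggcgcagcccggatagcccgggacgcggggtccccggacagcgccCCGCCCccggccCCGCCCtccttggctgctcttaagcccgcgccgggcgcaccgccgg

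In Plod2 the hypoxia cores began 178 and 133 bases upstream of the start, the heat shock pair 212 bases and the GC boxes 58 and 46 bases upstream, with no overlap between motifs. Fbln5 held a single GC box at 196 bases, and the windows of Fbn1, Loxl1 and P4ha1 held none of these letters. Only the letters given above were searched, so other forms of a motif were not counted in any window. Of 33469 rat promoters of the same length, 16.6% held the hypoxia core, 7.23% the heat shock pair and 30.5% the GC box. A match describes the letters in the window and does not show that a factor binds there.

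Some arrays stood apart in ways that touch these genes. On the slides of 7 and 30 days 73.3% to 95.6% of gene spots were well above background, and on those of 90 and 180 days 35.5% to 64.6%, and the median local background was 42 to 52 against 99 to 365.5. At 90 days the grafts differed as well. The median local background was 321 to 365.5 on BAM arrays and 99 to 120 on seeded arrays. Saturated gene spots numbered 432 to 1293 on BAM arrays and 334 to 563 on seeded arrays. The summed housekeeping signal had a median of 130.7 in BAM and 242.6 in seeded walls. Comparisons of the grafts at 90 days carry this difference, and its part in them was not tested. No slide held more than 1 group, and the scan date of the early slides (7 and 30 days) was not that of the later slides, so that slide, scan date and group cannot be told apart. Across all probes the median difference between the grafts was -0.16, 0.11, -0.27 and 0.06 at 7, 30, 90 and 180 days, which is the shift against which the differences below can be read. At 90 days replicate 3 of BAM seeded with ASCs had the highest summed signal of urothelial markers of its group (357.1, group median 182.1) and the lowest of macrophage and neutrophil markers (0.961, group median 9.32). Replicate 5 of BAM at 90 days had the lowest urothelial sum of its group (20.7, group median 92.3), and replicate 8 was the array with the fewest spots above background.

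**Figure D1:**
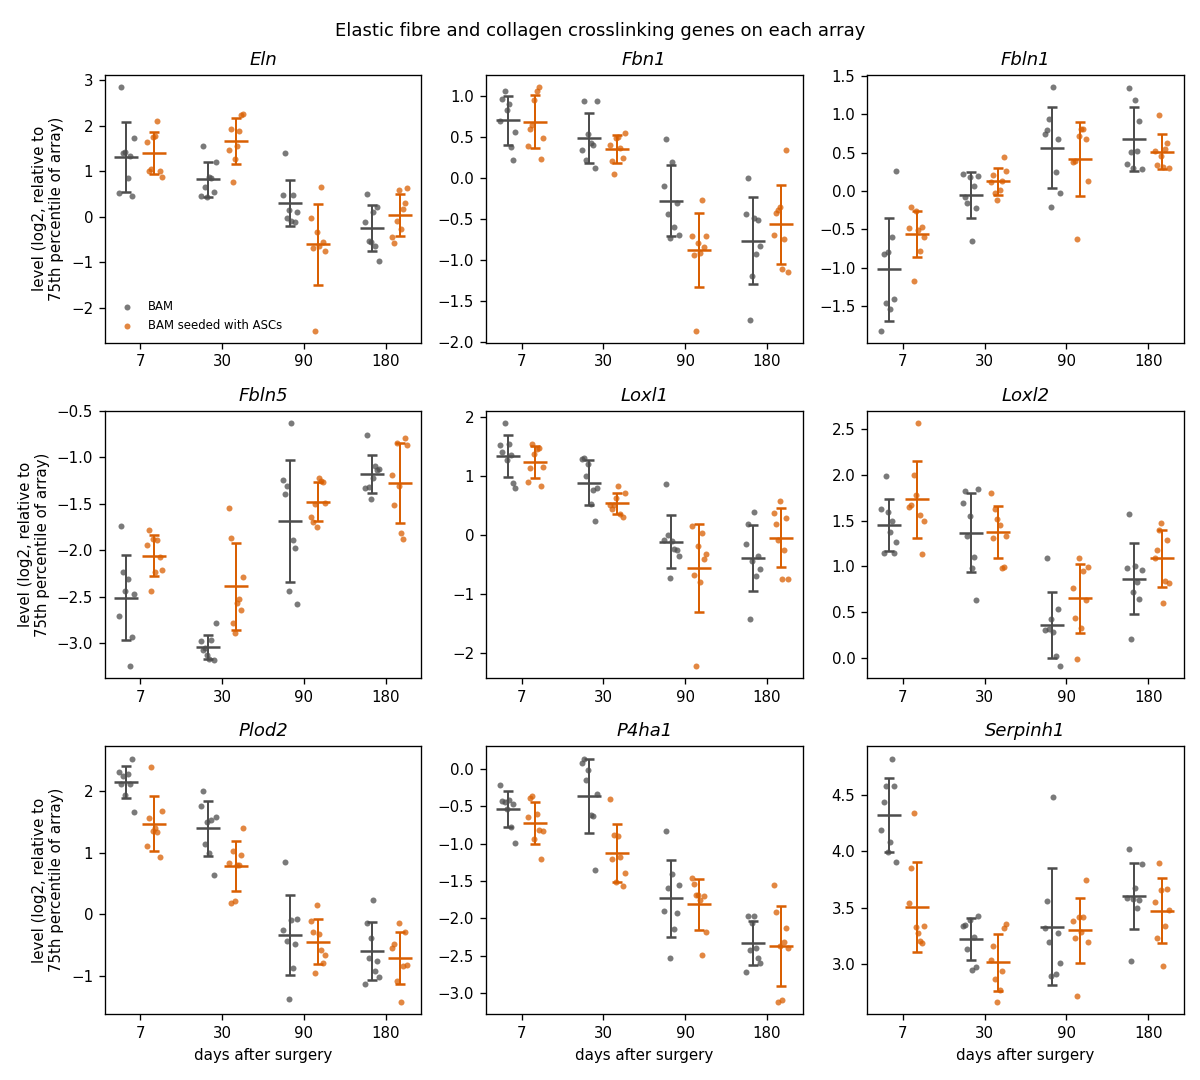
Level of the 9 measured genes on each of the 64 arrays (y axis, log2 relative to the 75th percentile of the array) by day after surgery (x axis), BAM in gray and BAM seeded with ASCs in orange. Points are single arrays and bars the mean and SD of 8 arrays. By group means Eln, Fbn1, Loxl1, Loxl2, Plod2 and P4ha1 lie lower at 90 and 180 days than at 7 days, and Fbln1 and Fbln5 lie higher. Serpinh1 in BAM at 7 days (mean 4.33) lies above its other groups.

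The first question was whether seeding changed these genes at a given day. Of 36 comparisons of a gene between the grafts 1 was called, Serpinh1 at 7 days, and 10 had an unadjusted p below 0.05. At 7 days 1 of 9 genes was called, where 7.73% of all probes were. At 30, 90 and 180 days none of the 9 was called by limma, where 1.67%, 12.5% and 2.44% of all probes were, and 4, 2 and 0 of the 9 had an unadjusted p below 0.05. Of all 30367 probes 8862, 7834, 14532 and 4275 had such a p at 7, 30, 90 and 180 days. The counts of genes below 0.05 are therefore not read as a result about the genes. The median log2 fold change of the 9 genes was -0.02, -0.14, -0.10 and -0.03 at the 4 days. At every day all 9 genes overlapped between the grafts, while of all probes 0.244%, 1.05%, 1.25% and 1.91% lay higher in seeded walls without overlap at 7, 30, 90 and 180 days and 4.21%, 0.874%, 1.92% and 0.0726% lay lower.

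The called gene was Serpinh1, the collagen chaperone, which was lower in seeded walls at 7 days. In BAM at 7 days its level ran from 3.91 to 4.83 with a median of 4.32, and in BAM seeded with ASCs from 3.19 to 4.34 with a median of 3.33. Of the 8 seeded arrays 7 lay below every BAM array, and replicate 3 of the seeded group, at 4.34, lay among them. The means were 3.51 ± 0.40 and 4.33 ± 0.33 (SD, n = 8), a log2 fold change of -0.82 (95% confidence interval -1.15 to -0.48, adjusted p = 0.00026). Set against the median probe of that day the difference was -0.66. It was past both thresholds in all 16 fits with 1 array left out, between -0.75 and -0.94. At 30, 90 and 180 days the difference was -0.21, -0.03 and -0.13 with intervals that included 0, and its change between 7 and 30 days was not called (0.61, adjusted p = 0.097).

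Plod2, the lysyl hydroxylase of the collagen telopeptides, had the next lowest value at 7 days and missed the call. In BAM at 7 days it ran from 1.67 to 2.54 with a median of 2.19, and in seeded walls from 0.94 to 2.40 with a median of 1.38. The difference was -0.68 (95% confidence interval -1.12 to -0.24, adjusted p = 0.024). The highest seeded array was again replicate 3, and without it the difference was -0.81 (adjusted p = 0.0060), past both thresholds. At 30 days Plod2 was at 0.78 ± 0.41 and 1.40 ± 0.44 (adjusted p = 0.069), and at 90 and 180 days the differences were -0.10 and -0.10.

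Markers of other cell types moved between the same groups at 7 days. Of 6 measured urothelial markers 4 were called higher in seeded walls, Upk1a (2.36), Upk1b (1.79), Upk2 (2.87) and Upk3a (2.28, saturated on 3 seeded arrays), and their summed signal ran from 32.6 to 131.7 in seeded walls and from 2.03 to 90.8 in BAM. Of 6 endothelial markers 2 were called lower, Vwf (-0.997) and Kdr (-0.68), with sums of 11.3 to 16.6 against 15.7 to 27.5. None of 8 macrophage and neutrophil markers was called, and their sums were 28.8 to 54.6 against 39.9 to 128.3. Fibroblast markers, with none of 5 called, summed to 27.2 to 41.7 against 29.0 to 52.9. Among the seeded arrays replicate 3, which had the highest Serpinh1 and Plod2, had the lowest urothelial sum (32.6) and the highest endothelial sum (16.6). Among the BAM arrays replicate 8, with the lowest Serpinh1 and Plod2, had the highest urothelial sum (90.8). The part of these markers in the Serpinh1 result was not tested, and in RNA of a whole wall fewer cells of a type and less RNA per cell cannot be told apart.

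Other genes that process collagen were read from a list of 21, of which 18 had a named probe. At 7 days 2 were called lower in seeded walls and none higher: Plod3, a lysyl hydroxylase and glycosyltransferase of collagen (-0.63, adjusted p = 3.58e-05), and P3h3, a prolyl 3-hydroxylase (-0.74, adjusted p = 0.0015). The median of the 18 was -0.25, against -0.16 over all probes. At 30 days Loxl4, a lysyl oxidase-like enzyme, was called higher (1.39, adjusted p = 0.0096), but it was well above background on 8 seeded and 4 BAM arrays and its level was low in both groups. None was called at 90 and 180 days, where the medians were -0.14 and -0.05.

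**Figure D2:**
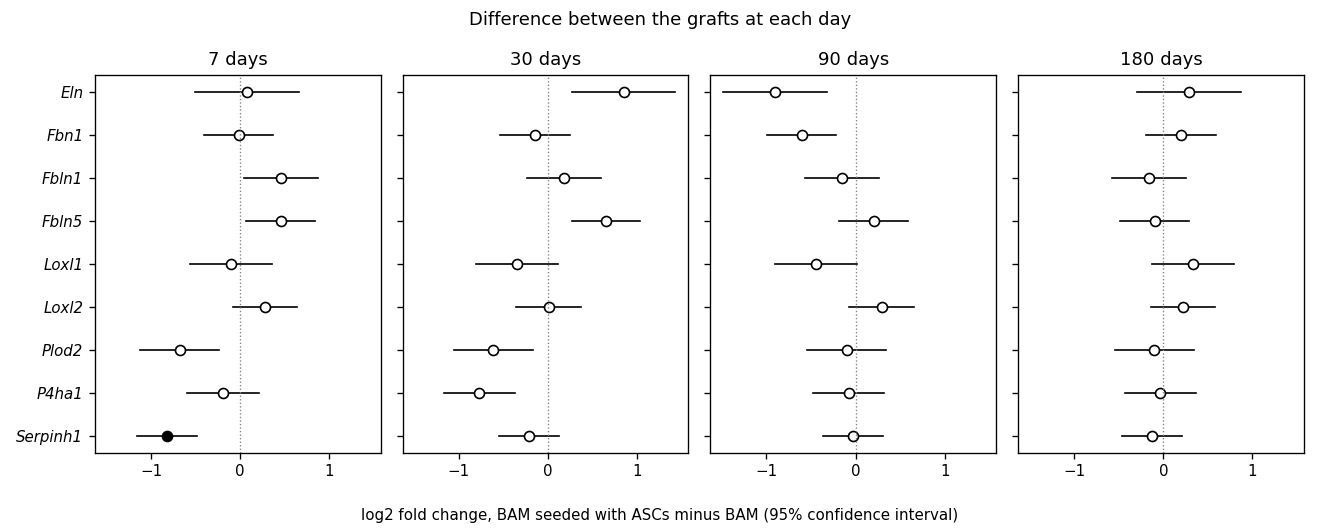
Difference between the grafts for the 9 genes at each day, as log2 fold change of BAM seeded with ASCs minus BAM (x axis) with its 95% confidence interval (lines). Filled points were called. The filled point is Serpinh1 at 7 days (-0.82), and the open points of Eln at 90 days (-0.90) and at 30 days (0.85) lie farther from 0.

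P4ha1, the prolyl 4-hydroxylase subunit, was lowest against BAM at 30 days and lay close to the threshold. Its level in BAM ran from -1.36 to 0.14 with a median of -0.24, and in seeded walls from -1.57 to -0.41 with a median of -1.19. The groups overlapped through BAM replicate 7 (-1.36) and seeded replicate 1 (-0.41). The difference was -0.77 (95% confidence interval -1.17 to -0.37, adjusted p = 0.012). It passed both thresholds in 2 of 16 fits with 1 array left out, where the adjusted p reached 0.036. These were the fits without BAM replicate 7 (-0.91, adjusted p = 0.0020) and without seeded replicate 1 (-0.87, adjusted p = 0.0049). Among 10 other settings of the analysis it passed in 2, and the adjusted p reached 0.039. The 2 were dim probes left out (adjusted p = 0.0095) and a replicate block (adjusted p = 0.0054). Replicate numbers did not pair the samples, so the block value is not read as support for a call. At 7, 90 and 180 days the differences were -0.19, -0.08 and -0.03, and all intervals included 0.

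For Eln the difference between the grafts changed sign from 30 to 90 days, and that change was called although neither day alone was. At 30 days its level ran from 0.43 to 1.56 in BAM and from 0.77 to 2.26 in seeded walls, with medians of 0.76 and 1.73. The difference was 0.85 (95% confidence interval 0.27 to 1.43, adjusted p = 0.053). At 90 days it ran from -0.10 to 1.40 in BAM, with a median of 0.13, and from -2.50 to 0.65 in seeded walls, with a median of -0.59. The difference was -0.90 (95% confidence interval -1.48 to -0.33, adjusted p = 0.014). Set against the median probe of each day the differences were 0.74 at 30 days and -0.63 at 90 days. The arrays of the grafts also differed in local background at 90 days, and its part in the Eln values was not tested. The difference at 90 days minus that at 30 days was -1.76 (95% confidence interval -2.57 to -0.94, adjusted p = 0.0013), the only 1 of 27 such interactions that was called, where 9.99% of all probes were called in that interaction. Over all probes the median of the interaction of 90 against 30 days was -0.31. In the interactions of 30 against 7 days and of 180 against 90 days none of the 9 genes was called by limma, where 0.985% and 9.79% of all probes were. Of the 9 genes 2 and 3 had an unadjusted p below 0.05 there, as had 8104 and 11645 of all 30367 probes. From 90 to 180 days the Eln difference between the grafts went back by 1.19 (adjusted p = 0.030). At 7 and 180 days the Eln differences were 0.08 and 0.29.

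Single arrays bear on the value at 90 days. Without replicate 3 of the seeded group, the array at -2.50, the difference was -0.63 (adjusted p = 0.061), and without replicate 2 of BAM, at 1.40, it was -0.75 (adjusted p = 0.040). Without replicate 6 of the seeded group it was -1.08 (adjusted p = 0.0039), past both thresholds. The interaction was -1.48 (adjusted p = 0.0031) without replicate 3 of the seeded group at 90 days and between -1.60 and -1.93 without each other array of the 4 groups, and was called in all 32 fits. Without replicate 8 or replicate 5 of BAM at 90 days it was -1.78 and -1.81.

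A second probe of Eln was dimmer and had other values at 90 days. It was well above background on all arrays of 7 and 30 days, but at 90 days on 1 seeded array and no BAM array, and at 180 days on none. The seeded array was replicate 3, at 0.10, while the other seeded arrays lay between -5.27 and -4.07. At 30 days, where it was measured on every array, its difference was 0.76 (95% confidence interval -0.05 to 1.58, adjusted p = 0.22). At 90 days no difference is given, since it was measured on so few arrays. With the mean of both probes the difference was -0.13 (adjusted p = 0.70) at 90 days and 0.81 (adjusted p = 0.034) at 30 days. The interaction was -0.93 (adjusted p = 0.037) and no longer called. At 90 days that mean takes in the dimmer probe, well above background on 1 array only, so it cannot decide whether the interaction holds. Replicate 3 thus had the lowest level of its group on the brighter probe and the highest on the dimmer one.

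**Figure D3:**
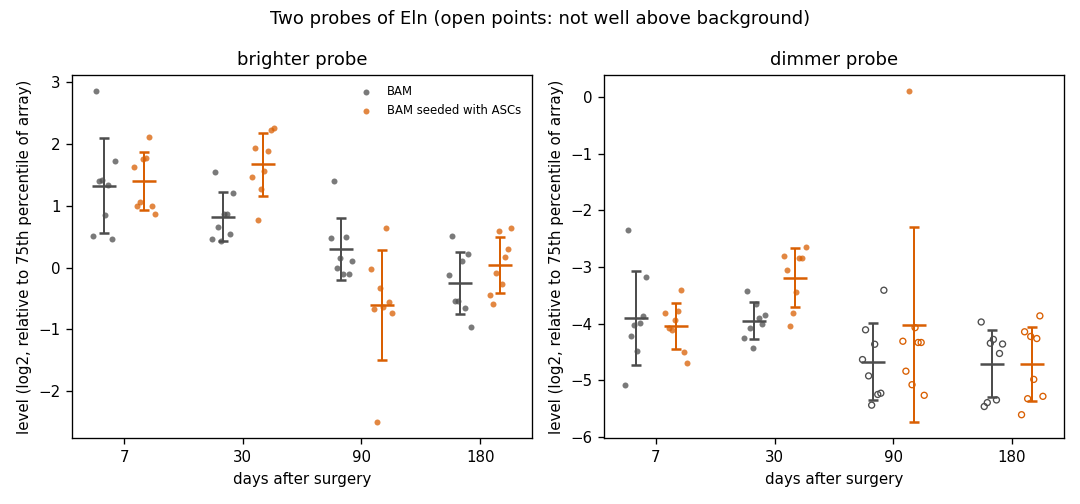
Level of both Eln probes on each array (y axis, log2 relative to the 75th percentile of the array) by day after surgery (x axis), with mean and SD of 8 arrays as bars, BAM in gray and BAM seeded with ASCs in orange. Open points were not well above background. The brighter probe is higher in seeded walls at 30 days (means 1.68 and 0.82) and lower at 90 days (-0.60 and 0.30), and at 90 days the dimmer probe is filled on 1 array only, at 0.10.

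Among the other elastic fibre members Fbn1 and Fbln5 came closest to the threshold. Fbn1, the microfibril gene, ran at 90 days from -0.73 to 0.48 in BAM and from -1.86 to -0.27 in seeded walls, with medians of -0.37 and -0.82. The difference was -0.61 (95% confidence interval -0.99 to -0.22, adjusted p = 0.014), and without seeded replicate 3 it was -0.46 (adjusted p = 0.053). Set against the median probe of that day the difference over all arrays was -0.33. Fbn1 passed both thresholds without seeded replicate 6 (-0.69, adjusted p = 0.0074) and without BAM replicate 4 (-0.67, adjusted p = 0.0086). At 7, 30 and 180 days its difference was -0.02, -0.14 and 0.20. Fbln5, which binds tropoelastin during fibre assembly, ran at 30 days from -3.18 to -2.79 in BAM and from -2.89 to -1.54 in seeded walls. Its difference was 0.65 (95% confidence interval 0.27 to 1.04, adjusted p = 0.026), and it was 0.45, 0.20 and -0.09 at 7, 90 and 180 days. Fbln1, a fibulin found in elastic fibres and basement membranes, differed by 0.46 at 7 days (95% confidence interval 0.05 to 0.88, adjusted p = 0.12), and by 0.18, -0.15 and -0.17 later. At 90 days Fbln1 was at -0.0065 without seeded replicate 3 and at -0.042 without BAM replicate 5, and Fbln5 at 0.075 without BAM replicate 8 and at 0.35 without BAM replicate 5.

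Loxl1, the oxidase linked to elastic fibre upkeep, differed by -0.10, -0.35, -0.44 and 0.34 at the 4 days, and Loxl2, an oxidase of collagen, by 0.28, 0.01, 0.29 and 0.22. Without seeded replicate 3 the value of Loxl1 at 90 days was -0.20 (adjusted p = 0.44). All 8 intervals of the values over all arrays included 0. They reached as far as -0.90 for Loxl1 at 90 days and 0.65 for Loxl2 at 90 days, so that differences of that size were not resolved with 8 arrays a group.

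Of 13 other elastic fibre genes 11 had a named probe. At 7 days Efemp1, a fibulin-family gene, was called higher in seeded walls (1.22, adjusted p = 2.56e-05), and Emilin1 (-0.61, adjusted p = 0.0044) and the microfibril gene Mfap5 (-0.77, adjusted p = 0.0042) were called lower. The median of the 11 was 0.09. At 30 days Fbn2, the fibrillin of early microfibrils, was called higher (1.72, adjusted p = 0.00099), with a level of -0.85 ± 0.54 in seeded walls and -2.57 ± 0.19 in BAM (SD, n = 8). None was called at 90 and 180 days. Of 8 enzymes that degrade elastin or collagen, among them Mmp2, Mmp9 and Mmp12, none was called at any day, with medians of -0.12, -0.39, -0.40 and 0.24. Of 5 fibrillar collagen genes measured, Col1a1 and Col1a2 were called higher at 90 days, but their probes were saturated on 4 and 7 seeded arrays and on 7 and 8 BAM arrays, so that no fold change is given.

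The second question was how these genes moved as the wall healed. Between 56.2% (Eln) and 82.2% (Plod2) of the variance over the 64 arrays was between days, except for Serpinh1 with 38.1% between days and 42.1% within groups, and between 3.97% (Fbln1) and 19.8% (Serpinh1) between the grafts within a day. Of 54 comparisons of a gene between consecutive days within a graft 17 were called, and 14 of these were between 30 and 90 days. In that step 7 of 9 genes were called in BAM, where 44.7% of all probes were, and 7 of 9 in seeded walls, where 28.1% were. Of all probes 35.2% were called higher and 9.49% lower in BAM, and 17.8% and 10.3% in seeded walls, while of the 9 genes 2 and 1 were higher and 5 and 6 lower. Of the 30367 probes behind these shares 8583 were well above background on all 64 arrays. The shares among those alone are not given here. Between 7 and 30 days 3 of 9 were called in BAM (8.65% of all probes) and none in seeded walls (8.06%), and between 90 and 180 days none in BAM (9.39%) or in seeded walls (4.14%). Where limma called none, 5 of the 9 in seeded walls from 7 to 30 days, and 4 with either graft from 90 to 180 days, had an unadjusted p below 0.05. Of all 30367 probes 12881 had such a p in seeded walls from 7 to 30 days. From 90 to 180 days 10347 did in BAM and 7932 in seeded walls, so these counts are not read as a result about the genes. The step from 30 to 90 days lies between the scan dates, and what the scan and the day contribute cannot be told apart.

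**Figure D4:**
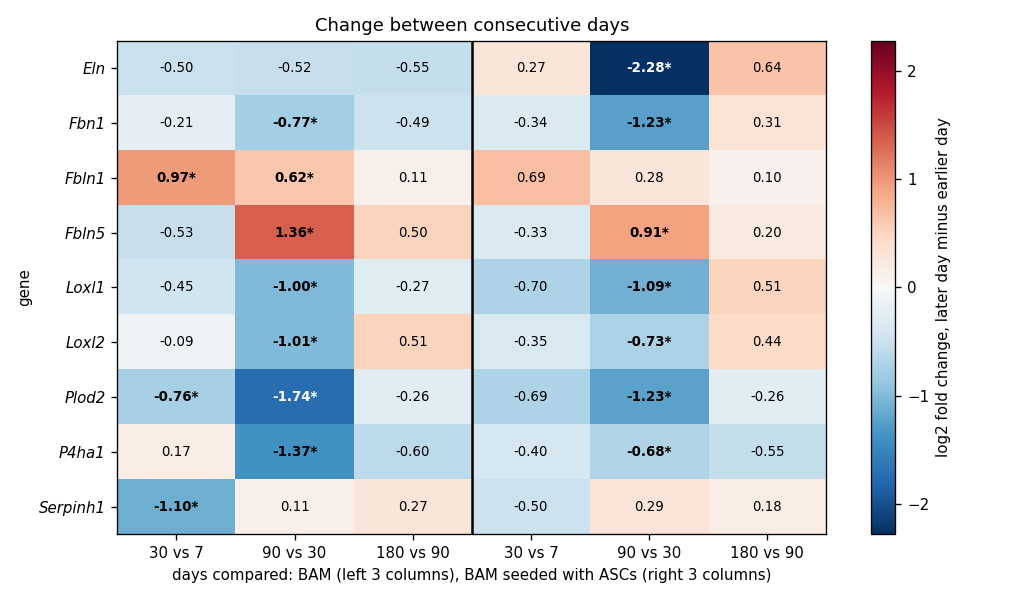
Log2 fold change of the 9 genes (rows) between consecutive days (columns, later minus earlier) in BAM (left) and BAM seeded with ASCs (right), color running from blue (lower) to red (higher). Values with an asterisk were called. The 14 calls between 30 and 90 days include the fall of Eln in seeded walls (-2.28) and of Plod2 in BAM (-1.74), and no gene was called between 90 and 180 days.

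Plod2 and P4ha1 fell between 30 and 90 days with either graft. Plod2 had means of 2.16, 1.40, -0.34 and -0.60 in BAM at 7, 30, 90 and 180 days, and of 1.48, 0.78, -0.44 and -0.70 in seeded walls. In BAM its range moved from 0.64 to 2.01 at 30 days to -1.38 to 0.86 at 90 days, a change of -1.74 ± 0.22 (SE, adjusted p = 1.22e-09), with some overlap of the groups. In seeded walls the ranges 0.19 to 1.41 and -0.95 to 0.15 did not overlap, and the change was -1.23 ± 0.22 (SE, adjusted p = 7.53e-06). The step from 7 to 30 days was called in BAM (-0.76, adjusted p = 0.0089) but sat at the threshold, and it was lost in 12 of 16 fits with 1 array left out, which gave -0.65 to -0.85. P4ha1 had means of -0.53, -0.36, -1.73 and -2.33 in BAM and -0.72, -1.13, -1.81 and -2.36 in seeded walls. It fell by 1.37 on the log2 scale in BAM (adjusted p = 3.70e-08) and by 0.68 in seeded walls (adjusted p = 0.0038) between 30 and 90 days, and the difference of these steps was not called (0.69, adjusted p = 0.054). The step in seeded walls was lost without replicate 1 at 30 days (-0.58, adjusted p = 0.013) or replicate 6 at 90 days (-0.59, adjusted p = 0.014).

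The lysyl oxidase-like genes fell in the same step. Loxl1 had means of 1.33, 0.89, -0.11 and -0.38 in BAM and 1.24, 0.54, -0.55 and -0.05 in seeded walls. Between 30 and 90 days it changed by -0.998 in BAM (adjusted p = 0.00015) and by -1.09 in seeded walls (adjusted p = 8.51e-05), where the groups did not overlap. Loxl2 had means of 1.46, 1.37, 0.36 and 0.87 in BAM and 1.73, 1.38, 0.65 and 1.09 in seeded walls. It changed by -1.01 (adjusted p = 2.57e-06) and -0.73 (adjusted p = 0.00072), and from 90 to 180 days by 0.51 (adjusted p = 0.034) and 0.44 (adjusted p = 0.11), neither of them called.

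Of the core of the elastic fibre, Fbn1 was called lower at 90 than at 30 days with either graft, and Eln in seeded walls. Fbn1 had means of 0.70, 0.49, -0.27 and -0.77 in BAM and 0.69, 0.35, -0.88 and -0.57 in seeded walls, with changes between 30 and 90 days of -0.77 (adjusted p = 0.00053) and -1.23 (adjusted p = 6.16e-07). Eln had means of 1.33, 0.82, 0.30 and -0.25 in BAM, each lower than the one before. None of its 3 steps there was called (-0.50, -0.52 and -0.55), and days further apart were not compared. In seeded walls its means were 1.40, 1.68, -0.60 and 0.04, and the step from 30 to 90 days was -2.28 ± 0.29 (SE, adjusted p = 4.12e-09), from a range of 0.77 to 2.26 to a range of -2.50 to 0.65. Without replicate 3 at 90 days that step was -2.01 (adjusted p = 1.91e-08). In seeded walls 4 of 9 genes, Eln, Fbn1, Loxl1 and Plod2, lay lower at 90 days than at 30 days with no overlap, where 6.23% of all probes did.

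Fbln5 rose with either graft, and Fbln1 rose in BAM. Fbln5 had means of -2.51, -3.04, -1.68 and -1.18 in BAM and -2.06, -2.39, -1.48 and -1.27 in seeded walls. Between 30 and 90 days it rose by 1.36 in BAM (adjusted p = 1.93e-08), from a range of -3.18 to -2.79 to one of -2.57 to -0.63, and by 0.91 in seeded walls (adjusted p = 9.81e-05). The BAM groups did not overlap, as was so for 27.5% of all probes that were higher at 90 days. Fbln1 had means of -1.02, -0.06, 0.57 and 0.68 in BAM and -0.56, 0.13, 0.41 and 0.51 in seeded walls. It rose in BAM from 7 to 30 days (0.97, adjusted p = 0.00034), on slides of the same scan date, from a range of -1.82 to 0.26 to one of -0.66 to 0.23. Its step from 30 to 90 days in BAM was at the threshold (0.62, adjusted p = 0.0077) and was lost in 9 of 16 fits with 1 array left out. In seeded walls the step from 7 to 30 days was 0.69 with no overlap of the arrays, as in 5.6% of all probes, but missed the call (adjusted p = 0.012).

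Serpinh1 had a course of its own. Its means were 4.33, 3.22, 3.33 and 3.60 in BAM and 3.51, 3.01, 3.30 and 3.47 in seeded walls. In BAM it fell by 1.103 on the log2 scale between 7 and 30 days (SE 0.17, adjusted p = 9.17e-07), from a range of 3.91 to 4.83 to one of 2.94 to 3.43 with no overlap, where 3.52% of all probes lay lower without overlap. In seeded walls the step was -0.50 (adjusted p = 0.023) and was not called. No later step was called with either graft, and neighbouring groups after 7 days overlapped.

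Other genes of the pathway were read in the same steps. Between 7 and 30 days in BAM, where 8.65% of all probes were called, 9 of 18 other collagen processing genes fell and none rose, 8 of them never saturated. Among them were P3h3 (-1.11) and Loxl4, which was well above background on 4 of 8 arrays at 30 days. The ninth, Pcolce, was saturated on 7 arrays at 7 days. In seeded walls, where 8.06% of all probes were called, 4 fell and none rose. Between 30 and 90 days, where 44.7% and 28.1% of all probes were called, 1 of 18 fell and 2 rose in BAM, and 4 fell and 1 rose in seeded walls. P3h3 rose with either graft (0.96 and 0.61), and P3h2, the other that rose in BAM, was well above background on 1 of 8 arrays at 90 days. Of 11 other elastic fibre genes 5 fell and 1 rose in BAM from 7 to 30 days. The early fibrillin Fbn2 had the largest change of these (-4.59 ± 0.34, SE, adjusted p = 2.28e-15), from 2.03 ± 0.38 to -2.57 ± 0.19 (SD, n = 8). In seeded walls it went from 1.19 ± 0.72 at 7 days to -0.85 ± 0.54 at 30 days and -3.74 ± 0.57 at 90 days, when 5 of 8 arrays were well above background. Efemp1 rose in BAM from 7 to 30 days (1.59) and from 30 to 90 days (1.07).

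Cell type markers also moved between 30 and 90 days. The summed signal of 8 macrophage and neutrophil markers ran from 32.0 to 54.0 in BAM at 30 days and from 2.60 to 34.6 at 90 days, and from 15.2 to 39.1 and 0.961 to 14.1 in seeded walls. That of 7 smooth muscle markers ran from 97.0 to 147.1 and 97.0 to 315.0 in BAM and from 84.8 to 130.7 and 193.1 to 338.6 in seeded walls, with markers saturated on part of the later arrays. That of 5 fibroblast markers ran from 27.2 to 47.5 and 28.0 to 54.9 in BAM and from 29.8 to 40.8 and 48.0 to 64.4 in seeded walls. Of 10 housekeeping genes 5 were called lower in BAM in this step, 1 of them never saturated (Hprt1, -0.62), and the median of the 10 was -0.52, against -0.77 for the 9 genes and 0.30 for all probes. In seeded walls 1 was called lower (Ywhaz, -0.61) and the median was -0.03. The part of these markers and of the scaling in the changes between days was not tested.

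By the Pearson correlation of the 8 group means, over 5232 genes well above background on every array, the genes most like Eln were Slit3 (0.985), Psma3 (0.974) and Cdk2ap1 (0.974). Those most like P4ha1 were Prdx5 (0.992), Ncoa6 (0.992) and Ube2g2 (0.989). These values describe 8 points that share arrays, slides and scan dates.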

How the data were processed

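RNA of 64 reconstructed bladder walls was measured on 1-color Agilent arrays. For every array the authors deposited the scanner output, whose processed signal is a linear intensity that is not normalized between arrays, and a series matrix of the same spots. In the deposited matrix 61 of 64 columns equal the scanner intensity within 0.01 on the log2 scale. Another 3 (seeded walls at 7 days, replicates 2, 3 and 4) hold the signal error and were left out where the matrix was used. Samples were grouped by graft and day from the labels.

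After removal of control and outlier spots, log2 signals were scaled to the 75th percentile of each array and averaged per probe. Group means were fitted with limma 3.58.1 (R 4.3.3) over all arrays, with Benjamini-Hochberg adjustment over 30367 probes. Summaries used Python 3.11.15. Probes were named through the RefSeq table (GRCr8). The promoter of 1 gene is not reported here. The fit was tested on simulated data.

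The genes, lists and comparisons were chosen with earlier results of these data known. Of other lists, genes called between the grafts were named, at most 4 per list and day. Alternatives were normexp (offset 50), quantile normalization, a percentile over detected probes, the series matrix, dim probes left out, fits of only the groups compared, a replicate block, the analysis of variance named in the methods, adjusted p below 0.05 with no fold, outlier spots kept, the mean of all probes, and each array left out. They were extended to single genes between days and to interactions after seeing the data. The number of arrays limits the precision.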

Additional observations from a re-analysis of the deposited data

Results flagged for a closer look

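In a group of 8 arrays a value was listed when its gap to the nearest other array was too large a part of the range of the group by Dixon's test at the 95% level, which chance gives in about 1 of 20 groups. Of 72 groups of a gene 8 held such a value. Replicate 3 of BAM seeded with ASCs at 90 days was the lowest array for 4 genes: Eln at -2.50 (other arrays -0.74 to 0.65), Fbn1 at -1.86 (others -0.94 to -0.27), Fbln1 at -0.62 (others 0.13 to 0.81) and Loxl1 at -2.22 (others -0.80 to 0.15). Replicate 2 of BAM at 90 days was the highest for Eln at 1.40 (others -0.10 to 0.49) and for Loxl1 at 0.87 (others -0.72 to 0.00). Replicate 5 of BAM at 90 days was the highest for Serpinh1 at 4.49 (others 2.90 to 3.56). Replicate 3 of BAM seeded with ASCs at 180 days was the highest for Fbln1 at 1.00 (others 0.29 to 0.62). Of these 8 values 7 lay in the groups of 90 days.

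For Eln the difference between the grafts was itself different at 90 and 30 days, by -1.76 (limma, adjusted p = 0.0013), and the mean of both Eln probes gave -0.93. At 90 days the dimmer probe in that mean was well above background on 1 seeded array and no BAM array.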

How the results depend on the processing

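The Serpinh1 call at 7 days held under the 10 alternatives fitted for it and with each array left out. The Eln interaction was lost with the mean of all probes alone, where 0 genes were called. That mean takes in the dimmer Eln probe, which at 90 days was mostly not well above background. Of 360 values of single genes between the grafts under those alternatives 349 kept direction and side of the threshold, of 540 between days 526, and of 270 interactions 265. Replicate numbers did not pair the samples (deviations of same-numbered arrays correlated at -0.31 to 0.62), and the replicate block gave 1 call at 30 days (P4ha1, adjusted p = 0.0054) and took the Plod2 step from 7 to 30 days in BAM (-0.76) to an adjusted p of 0.011. Quantile normalization also ended that call (-0.76, adjusted p = 0.0101). With the looser threshold 2 genes were called between the grafts at 7, 30 and 90 days and 2 between 90 and 180 days in BAM. It called 4 between 7 and 30 days in seeded walls and 2 in the interaction of 180 and 90 days. The share of all probes called at that threshold is not given here, so these counts are not read as a result about the genes. Without dim probes 1 was called at 30 days. With normexp 1 was called at 90 days (Fbn1, -0.63, adjusted p = 0.0075). Between 7 and 30 days in seeded walls quantile normalization, the percentile over detected probes and dim probes left out gave 1 call each, and the groups compared alone 2. With 1 array left out the counts were 1 to 2 at 7 days, 0 to 1 at 30 days, 0 to 2 at 90 days, and 0 to 1 between 90 and 180 days in BAM and between 7 and 30 days in seeded walls.

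Among values that were not called, some changed sign under another setting. At 7 days Eln was -0.034 with the mean of probes. Fbn1 at 7 days was 0.076 with normexp, 0.026 with quantile normalization and 0.085 with the percentile over detected probes, which gave 0.0045 for Loxl1. Loxl2 at 30 days was -0.078 with normexp, and Serpinh1 at 90 days was 0.032 with quantile normalization and 0.016 over detected probes. The step of Eln from 90 to 180 days in seeded walls was -0.026 with the mean of probes, which takes in the dimmer probe at days where it was mostly not well above background. Of interactions, Serpinh1 at 90 against 30 days was -0.017 with normexp, and P4ha1 at 180 against 90 days was -0.11, -0.059 and -0.011 with quantile normalization, detected probes and the series matrix. With 1 array left out, some values that were not called also changed sign. The ranges between the grafts were Eln (7 days) -0.045 to 0.30, Fbn1 (7 days) -0.087 to 0.047, Loxl2 (30 days) -0.10 to 0.075, Plod2 (90 days) -0.25 to 0.071, P4ha1 (90 days) -0.19 to 0.0502, Serpinh1 (90 days) -0.10 to 0.13, Plod2 (180 days) -0.18 to 0.017 and P4ha1 (180 days) -0.15 to 0.076. Those between days were Loxl2 (BAM, 7 days to 30 days) -0.15 to 0.019, Serpinh1 (BAM, 30 days to 90 days) -0.058 to 0.17, Fbln1 (BAM, 90 days to 180 days) -0.00099 to 0.22 and Fbln1 (seeded walls, 90 days to 180 days) -0.048 to 0.16. Those of interactions were Plod2 (30 days against 7 days) -0.043 to 0.20, Loxl1 (90 days against 30 days) -0.19 to 0.15, Fbln1 (180 days against 90 days) -0.16 to 0.10, Loxl2 (180 days against 90 days) -0.17 to 0.031, Plod2 (180 days against 90 days) -0.17 to 0.15 and P4ha1 (180 days against 90 days) -0.082 to 0.16. The cause was not tested.

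The step of Fbln1 from 30 to 90 days in BAM was lost with normexp (0.51), quantile normalization (0.60), dim probes left out and the groups compared alone (both 0.62), and those of Loxl2 (-0.57) and P4ha1 (-0.55) in seeded walls with normexp.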

Other observations

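Of 8 enzymes that break down elastin or collagen, 4 were called lower in BAM and 5 in seeded walls between 30 and 90 days. Of all probes 9.49% and 10.3% were called lower in this step, and 35.2% and 17.8% higher. The step lies between the scan dates, and what the scan and the day contribute cannot be told apart. The names of the enzymes were chosen after their values were seen. Mmp12, the macrophage elastase, had means of 4.89 ± 0.37 and 1.18 ± 2.84 in BAM and of 3.99 ± 1.06 and 0.96 ± 2.85 in seeded walls (SD, n = 8). Its log2 fold changes were -3.72 and -3.03, with 2 BAM arrays of 30 days saturated and 7 of 8 arrays of 90 days well above background in each graft. Cathepsin K (Ctsk), which cleaves collagen and elastin, changed by -1.85 in BAM and by -1.75 in seeded walls, and cathepsin S (Ctss) by -1.64 and -0.98. Mmp9, a gelatinase, changed by -2.34 and -1.78, and was well above background on 4 and 6 of 8 arrays at 90 days. Mmp14, a membrane-bound collagenase, was called lower in seeded walls (-1.23). Elane and Ctsg, proteases of neutrophil granules, were called higher with either graft, but at 30 and 90 days no array measured them well above background except for Ctsg on 1 seeded array, so no fold is given.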
